A study of Mus musculus with 14 samples.

Results

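The genes described here are the mouse heat shock proteins and the DnaJ co-chaperones that work with them. They were taken by name: every row whose symbol starts with Hsp90, or with Hspa, Hspb, Hspd, Hspe, Hsph, Dnaja, Dnajb or Dnajc followed by a number, with 14 pseudogene rows left out. The rule found 72 of the 55416 genes: 14 of the HSP70 and HSP110 families, 3 of the HSP90 family, 2 mitochondrial chaperonin genes (HSP60 and HSP10), 8 named as small heat shock proteins, and 4 DNAJA, 13 DNAJB and 28 DNAJC genes. The rule used gene names and no measured value, but it was set with earlier results of these data known. The bulk RNA-seq libraries came from the lung and the gastrocnemius (the large muscle of the calf) of C57BL/6 males (C57BL/6NCrlOri), 6 to 8 weeks old, in a series that sought targets in cancer cachexia. In tumour-bearing (TB) mice, cells of the line KrasIKKaL had been placed in the airways through the trachea. The groups were tumour-bearing lung (5 libraries), control (CON) lung (3), tumour-bearing muscle (3) and control muscle (3). No label states what control mice received or how long after the injection tissue was taken. Separate animals per library are not stated either, so every p-value reflects the scatter among these libraries alone, which may be technical.

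Heat shock proteins are chaperones: they bind proteins that are newly made or have lost their fold and help them to fold, to cross membranes or to be degraded. HSP70s bind and release clients in a cycle driven by ATP, DnaJ (HSP40) proteins bring clients to HSP70s and start the hydrolysis of ATP, HSP110 and other exchange factors reset the cycle, HSP90s act on kinases and receptors at a later step, and small heat shock proteins hold unfolded clients without ATP. Part of the family is constitutive, and part is induced within minutes of heat or other proteotoxic stress by heat shock factor 1, which binds promoters at repeats of GAA in alternating orientation. Skeletal and heart muscle are rich in small heat shock proteins, several of which sit on sarcomeres.

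Promoters of 6 members that fell in tumour-bearing lung are shown as examples with a match to 2 or more such repeat units. Dnajb6 and Dnajc10, which rose there, have a match too. Hspa1a, Hspa1b, Dnaja4, Hspb1 and Dnajc10 had 2-unit matches only and no 3-unit match. Promoter windows of 300 bases, from 250 before to 50 after the annotated start, were taken from RefSeq (build GRCm38.p6), which held 58 of the 72 members. Capitals mark every match to the 2-unit element GAANNTTC or TTCNNGAA. Both letter strings are their own reverse complement, so both strands are covered, and matches may overlap. The windows of Dnajb1, an inducible member that also fell in tumour-bearing lung, held no match. The windows of Hspa1a (chr17:34972107-34972406) and Hspa1b (chr17:34959189-34959488), both on the minus strand, were identical at 296 of 300 bases. Those of Hsph1 (chr5:149636266-149636565, minus strand) and Hspe1 (chr1:55087898-55088197, plus strand) held a 3-unit element, which is GAANNTTC followed by NNGAA or TTCNNGAA followed by NNTTC, and those of Dnaja4 (chr9:54699309-54699608, plus strand) and Hspb1 (chr5:135887669-135887968, plus strand) held 2 separate 2-unit elements each.
Hspa1a: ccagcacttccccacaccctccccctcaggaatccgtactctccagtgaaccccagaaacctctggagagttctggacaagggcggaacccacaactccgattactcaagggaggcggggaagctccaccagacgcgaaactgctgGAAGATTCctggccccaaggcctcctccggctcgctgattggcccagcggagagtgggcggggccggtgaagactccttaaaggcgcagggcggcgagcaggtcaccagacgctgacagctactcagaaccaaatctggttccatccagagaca
Hspa1b: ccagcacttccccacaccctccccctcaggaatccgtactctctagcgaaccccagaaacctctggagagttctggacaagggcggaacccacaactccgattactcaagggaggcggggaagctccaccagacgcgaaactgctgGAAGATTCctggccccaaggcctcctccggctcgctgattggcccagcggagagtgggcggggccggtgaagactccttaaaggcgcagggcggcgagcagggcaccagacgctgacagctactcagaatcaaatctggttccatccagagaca
Hsph1: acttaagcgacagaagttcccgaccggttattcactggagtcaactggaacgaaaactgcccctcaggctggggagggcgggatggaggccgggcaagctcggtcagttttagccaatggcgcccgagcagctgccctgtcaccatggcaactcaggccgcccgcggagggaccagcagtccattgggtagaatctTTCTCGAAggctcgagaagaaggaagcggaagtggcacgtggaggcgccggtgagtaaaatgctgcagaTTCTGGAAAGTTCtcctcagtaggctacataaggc
Hspe1: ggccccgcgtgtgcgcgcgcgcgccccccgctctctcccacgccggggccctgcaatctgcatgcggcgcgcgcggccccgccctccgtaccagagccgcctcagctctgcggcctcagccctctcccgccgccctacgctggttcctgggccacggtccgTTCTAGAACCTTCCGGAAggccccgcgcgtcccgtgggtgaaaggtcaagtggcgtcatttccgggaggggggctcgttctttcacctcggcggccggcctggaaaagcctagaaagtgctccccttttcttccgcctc
Dnaja4: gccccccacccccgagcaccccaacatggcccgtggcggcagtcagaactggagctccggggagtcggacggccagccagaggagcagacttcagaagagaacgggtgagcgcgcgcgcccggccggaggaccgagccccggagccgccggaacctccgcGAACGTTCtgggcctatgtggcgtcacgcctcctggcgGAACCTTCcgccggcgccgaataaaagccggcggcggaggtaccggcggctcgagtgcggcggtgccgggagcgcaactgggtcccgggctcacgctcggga
Hspb1: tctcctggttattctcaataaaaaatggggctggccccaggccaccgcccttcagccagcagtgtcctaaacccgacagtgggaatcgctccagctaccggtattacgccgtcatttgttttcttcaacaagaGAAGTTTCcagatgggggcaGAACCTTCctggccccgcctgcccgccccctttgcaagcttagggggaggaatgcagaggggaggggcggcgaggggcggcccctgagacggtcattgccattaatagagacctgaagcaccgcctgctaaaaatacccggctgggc
The 2-unit element was present in 16 of the 58 members (27.6%), against 17.0% of the 27025 genes with a window of this length, and the 3-unit element in 4 (6.90%: Dnajb6, Hspd1, Hspe1 and Hsph1), against 0.662%. The Hspe1 window shares 285 bases of genome with that of Hspd1, which lies on the other strand, so these 2 are not separate observations. A match in letters is not a measured binding site.

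Values for each library below are CPM, the gene's counts per 1e6 counts of the library, on TMM-scaled library sizes of its tissue, and a log2 fold change is tumour-bearing over control unless stated otherwise. Sums over marker or immediate early genes, and the CPM of 3 reads, use library sizes without TMM scaling and so are on another scale. Adjusted p-values are those of edgeR's quasi-likelihood test with Benjamini-Hochberg adjustment over all genes tested, SE is the standard error of the log2 fold change, and a gene is said to have risen, fallen or passed at an adjusted p below 0.05. Libraries held 32476194 to 44169410 counts in muscle and 47947363 to 61087315 in lung. The 8 skeletal fibre markers together had 71328 to 115676 CPM in muscle and 9.36 to 19.7 CPM in lung, and the surfactant gene Sftpc was at 0 in all muscle libraries. Tumour-bearing lung had lost most marker signal of normal lung: the 5 alveolar type 2 markers summed to 3.59 to 946 CPM in tumour-bearing lung, against 22985 to 25127 CPM in control lung, while the 6 cell cycle genes summed to 238 to 655 CPM against 33.2 to 46.9 CPM. In bulk RNA, fewer cells of a type and less RNA per cell cannot be told apart, and this holds for every lung result below.

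Summed over the 72 genes, TPM (a unit that corrects for length and allows levels of different genes to be compared) came to 6156 to 8710 in tumour-bearing lung and 14448 to 15801 in control lung, without overlap. In muscle the sum was 2747 to 6172 TPM in tumour-bearing and 1587 to 3341 TPM in control mice, and the groups overlapped. A few genes carried most of it: the 5 highest members held 66.4% of the members' TPM in tumour-bearing lung, 58.7% in control lung, 65.8% in tumour-bearing muscle and 58.0% in control muscle. In tumour-bearing lung the order was Hspa8 (1573 ± 207 TPM, SD, n = 5), Hsp90ab1 (1412 ± 175), Hspa5 (674 ± 674), Hsp90b1 (483 ± 314) and Hspb1 (396 ± 159), and each overlapped the next. The place of Hspa5 rests on library 5, at 1872 TPM, while the other 4 libraries had 292 to 461 TPM, close to those of Hsp90aa1 (275 to 489 TPM over the 5 libraries). In control lung Hspa8 stood first (2708 ± 261 TPM, SD, n = 3), then Hsp90ab1 (1908 ± 112), Hspb1 (1645 ± 75.6), Hsp90aa1 (1420 ± 66.2) and the inducible Hspa1b (1098 ± 89.4), and none of these overlapped the next. Control muscle was led by Hspb6 (546 ± 228 TPM, SD, n = 3), Hspa8 (365 ± 66.9) and Hsp90ab1 (196 ± 65.2). In tumour-bearing muscle Hsp90ab1 (731 ± 438 TPM, SD, n = 3), Hspb6 (704 ± 180) and Hspa8 (514 ± 336) came first and overlapped.

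**Figure D1:**
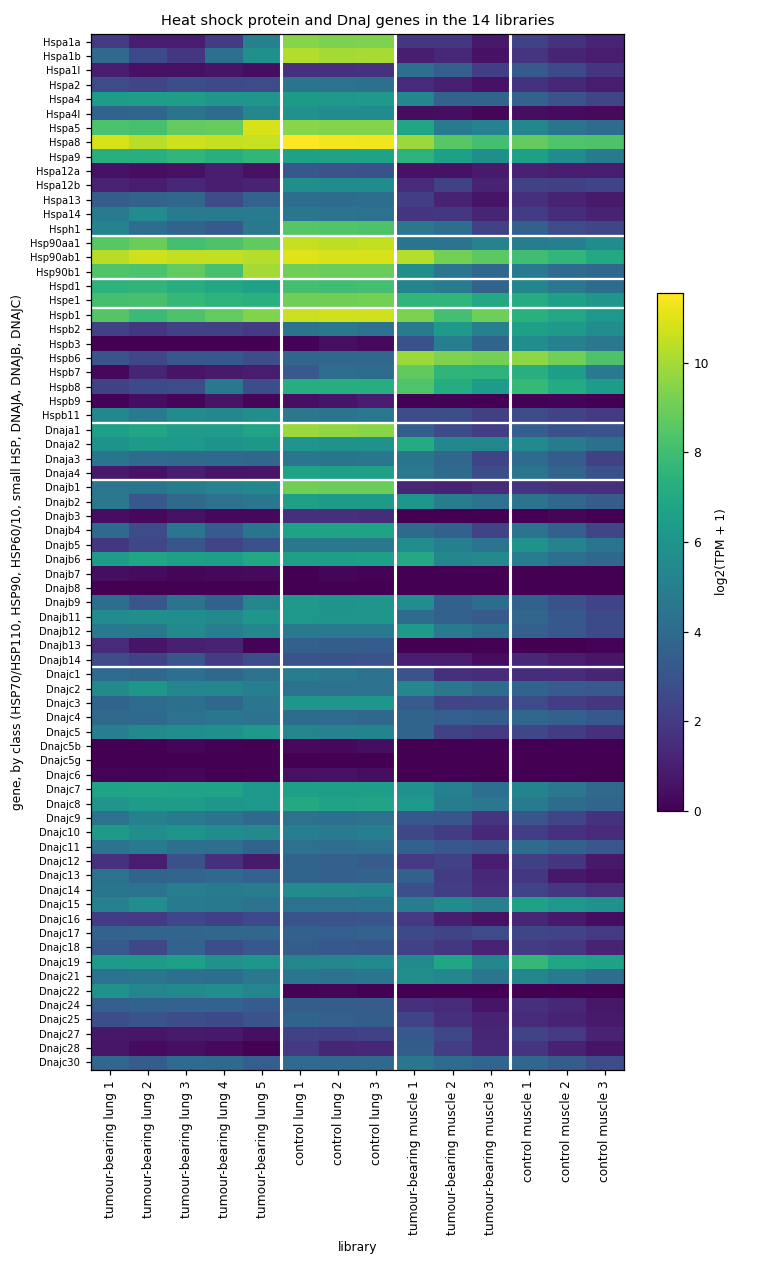
Level of each of the 72 genes, as log2(TPM + 1), in the 14 libraries, with genes grouped by class down the page and libraries by group across it, tumour-bearing left of control in each tissue. The inducible genes Hspa1a, Hspa1b, Hsph1, Dnajb1 and Dnaja1 are bright in the 3 control lung libraries and darker in all others, and the small heat shock proteins Hspb3, Hspb6 and Hspb7 are brighter in muscle than in lung.

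In tumour-bearing lung, 28 of the 68 members tested were lower than in control lung and 17 were higher. Of all 19300 genes tested, 59.7% passed, 29.3% lower and 30.4% higher, so a member that passed is no rarity in these libraries. A set of 8 members known as heat-inducible, Hspa1a, Hspa1b, Hsph1, Dnajb1, Dnaja1, Dnaja4, Hspb1 and Hsp90aa1, which was put together after their values were seen, fell by 1.52 to 6.66 on the log2 scale, while the constitutive Hsp90ab1 and the endoplasmic reticulum chaperones Hspa5 and Hsp90b1 did not pass. The median log2 fold change was -0.31 over the members and 0.07 over all genes tested. Groups did not overlap for 30 members that were lower and 19 that were higher, against 32.1% and 30.9% of all genes tested. With TPM, on log2(TPM + 1), the split was 41 lower and 7 higher, and the median of all genes moved to -0.23. By class, 8 of 14 HSP70 and HSP110 genes fell and 2 rose, 1 of 3 HSP90 genes fell, and 1 of 2 chaperonin genes fell. Of 7 genes named as small heat shock proteins 4 fell and 1 rose, which was Hspb11, a small heat shock protein in name only. Among DnaJ genes, 2 of 4 DNAJA genes fell and 1 rose, 7 of 12 DNAJB genes fell and 3 rose, and 5 of 26 DNAJC genes fell and 10 rose. The members too low to be tested were Dnajb8, Dnajc5b, Dnajc5g and Hspb3.

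Among HSP70s, the stress-inducible pair fell most. Hspa1a had 7.45, 2.30, 2.20, 7.95 and 88.7 CPM in tumour-bearing lung, against 1315, 1199 and 1251 CPM in control lung (log2 fold change -5.86, SE 1.25, adjusted p = 0.0032). Hspa1b had 34.4, 12.2, 6.08, 43.7 and 144 CPM in tumour-bearing lung, against 2109.6, 1902 and 1939.6 CPM in control lung (log2 fold change -5.37, SE 0.90, adjusted p = 0.000859). Every tumour-bearing library was far below every control library, and tumour-bearing library 5 was the highest of its group for both. The genes are near-identical copies, so reads may be divided between them with error, but their sum was also apart, at 3.54 to 85.3 TPM in tumour-bearing lung and 1650 to 1905 TPM in control lung. Hsph1, the HSP110 exchange factor of cytosolic HSP70s, had 62.6, 33.7, 22.6, 14.2 and 42.7 CPM in tumour-bearing lung, against 536, 513 and 499 CPM in control lung (log2 fold change -3.87, SE 0.42, adjusted p = 6.92e-05). Hspa8, the constitutive cytosolic HSP70, had 3193, 2505, 2654, 2746 and 2859.9 CPM in tumour-bearing lung, against 4234, 3925 and 3879 CPM in control lung, a fall of much smaller size (log2 fold change -0.52, SE 0.18, adjusted p = 0.0282). The Hspa8 groups did not overlap, but the call was lost without any 1 of the control libraries or without tumour-bearing library 3, with an adjusted p of up to 0.101.

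The distant HSP70 relatives Hspa12a and Hspa12b both fell. Hspa12b, known from endothelial cells, had 3.37, 2.52, 4.06, 2.98 and 3.92 CPM in tumour-bearing lung, against 112, 108 and 109 CPM in control lung (log2 fold change -5.02, SE 0.19, adjusted p = 7.56e-07). Hspa12a had 0.998, 0.774, 0.988, 1.88 and 1.08 CPM in tumour-bearing lung, against 23.6, 20.6 and 21.05 CPM in control lung (log2 fold change -4.25, SE 0.30, adjusted p = 8.78e-06). All 5 tumour-bearing libraries were below all 3 control libraries for both genes. The 5 endothelial markers, all of which fell, summed to 96.5 to 133 CPM in tumour-bearing lung and to 2549 to 2697 CPM in control lung, and their part in the Hspa12b result was not tested. Hspa2, best known for its high expression in testis, had 11.8, 9.60, 11.9, 10.9 and 12.5 CPM in tumour-bearing lung, against 33.0, 31.5 and 30.3 CPM in control lung (log2 fold change -1.48, SE 0.15, adjusted p = 5.46e-05). Hspa1l, another gene best known from testis, also fell (-1.46 ± 0.35, log2 fold change ± SE, adjusted p = 0.00572). On the other side, Hspa9, the mitochondrial HSP70, had 385, 388, 467, 408 and 545 CPM in tumour-bearing lung, against 177, 195 and 198 CPM in control lung (log2 fold change 1.21, SE 0.17, adjusted p = 0.000358). Hspa14, an HSP70 that works at the ribosome, had 32.9, 59.3, 33.7, 34.1 and 33.7 CPM in tumour-bearing lung, against 20.5, 20.0 and 19.5 CPM in control lung (log2 fold change 0.95, SE 0.23, adjusted p = 0.00642), with tumour-bearing library 2 well above the other 4. Hspa4 (0.27), Hspa4l (-0.90) and Hspa13 (-0.26) did not pass.

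The HSP90 genes divided by isoform. Hsp90aa1, the inducible cytosolic form, had 844, 1014, 603, 727 and 1045 CPM in tumour-bearing lung, against 2437, 2337 and 2495 CPM in control lung (log2 fold change -1.52, SE 0.21, adjusted p = 0.000313), without overlap. Its constitutive counterpart Hsp90ab1 had 2618, 3579, 2839, 3163 and 2864 CPM in tumour-bearing lung, against 3056, 2879.9 and 2908 CPM in control lung (log2 fold change 0.03, SE 0.18, adjusted p = 0.892), and the groups overlapped; its sign turned under 8 alternatives, and on log2(TPM + 1) it fell (adjusted p = 0.0341). Of the mitochondrial chaperonin, Hspe1, the HSP10 lid, had 151, 161, 105, 97.0 and 95.5 CPM in tumour-bearing lung, against 206, 217 and 228 CPM in control lung (log2 fold change -0.83, SE 0.21, adjusted p = 0.00757). Hspd1, the HSP60 barrel, had 351, 388, 284, 242 and 211 CPM in tumour-bearing lung, against 409, 394 and 413 CPM in control lung and did not pass (log2 fold change -0.46, SE 0.21, adjusted p = 0.092). In the deposited counting, both genes have processed pseudogenes that can share reads with them.

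**Figure D2:**
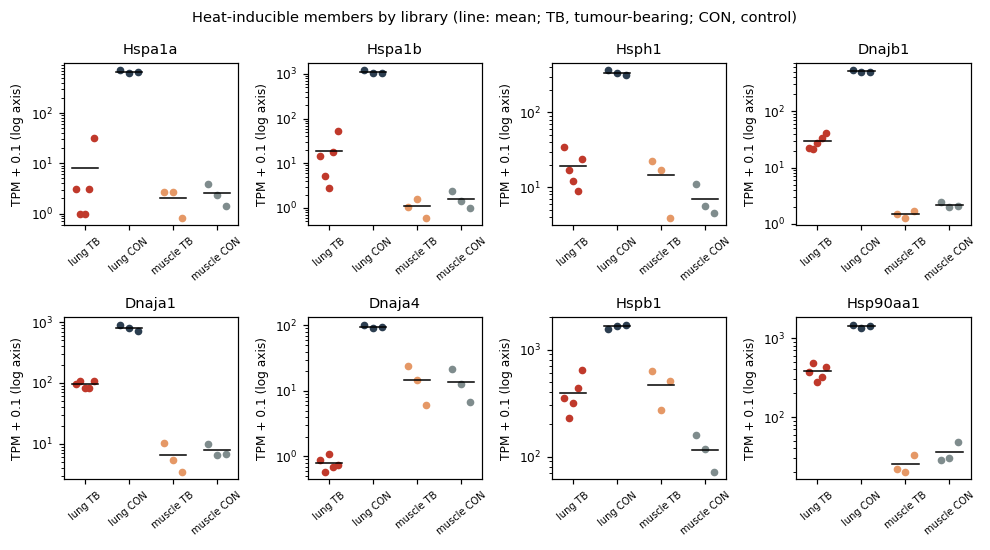
TPM + 0.1 on a log axis of 8 heat-inducible members in each library of tumour-bearing lung, control lung, tumour-bearing muscle and control muscle, with a line at each group mean. The 3 control lung libraries stand above all tumour-bearing lung libraries in each panel, and for Hspa1a, Hspa1b, Dnajb1, Dnaja1 and Hsp90aa1 the muscle groups lie close together.

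Among the cytosolic DnaJ partners of HSP70, some fell and some, such as Dnaja2, Dnajb6 and Dnajc7 below, rose. Dnajb1, the main inducible HSP40, had 57.0, 56.1, 67.9, 90.4 and 118 CPM in tumour-bearing lung, against 991, 971 and 973 CPM in control lung (log2 fold change -3.65, SE 0.27, adjusted p = 9.5e-06). Dnaja1, a cytosolic DnaJ that carries a farnesyl anchor, had 211, 240.1, 145, 152 and 225 CPM in tumour-bearing lung, against 1196, 1186 and 1174 CPM in control lung (log2 fold change -2.61, SE 0.21, adjusted p = 1.47e-05). Dnaja4, its close relative, had 2.01, 1.27, 2.44, 1.59 and 1.81 CPM in tumour-bearing lung, against 192, 178 and 184 CPM in control lung (log2 fold change -6.66, SE 0.22, adjusted p = 5.74e-07), which is the largest fall among the members. For all 3 genes the groups were far apart. Dnajb4, another cytosolic DNAJB, had 30.3, 11.9, 44.4, 19.8 and 49.0 CPM in tumour-bearing lung, against 154, 158 and 163 CPM in control lung (log2 fold change -2.35, SE 0.40, adjusted p = 0.000903). Dnajb2, which binds ubiquitin and sorts clients to the proteasome, fell as well (-1.63 ± 0.31, log2 fold change ± SE, adjusted p = 0.00187), and so did Dnajb5 (-1.57 ± 0.31, adjusted p = 0.00193).

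Beside these falls stand those of another rapidly induced set. The 11 immediate early genes, which respond to stress and handling within minutes, summed to 560 to 2115 CPM in tumour-bearing lung and 6763 to 8428 CPM in control lung, and 7 of the 11 fell. The part of tissue handling in the control level of the inducible chaperones was not tested. Members with a 2-unit element in the promoter window had a median log2 fold change of -2.20 (14 tested: 10 fell, 2 rose), against -0.11 for the members with a window and no element (41 tested: 14 fell, 11 rose). For the 3-unit element the medians were -0.64 with it (4 tested: 2 fell, 1 rose) and -0.48 without it (51 tested: 22 fell, 12 rose). Of all genes tested in lung, 29.3% fell and 30.4% rose, and other genes that hold the element were not examined. The members with the 2-unit element include Hspa1a, Hspa1b, Hsph1, Dnaja1, Dnaja4 and Hspb1, whose falls had already been seen. These medians and counts are descriptions of few and related genes.

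Other DNAJB members moved both ways. Dnajb6, which keeps proteins from aggregating and is needed at the Z-disc of muscle, had 142.6, 182, 136.7, 155 and 213 CPM in tumour-bearing lung, against 104, 103 and 103 CPM in control lung (log2 fold change 0.68, SE 0.18, adjusted p = 0.0084). Dnajb12, a membrane protein of the endoplasmic reticulum, had 60.3, 60.6, 94.5, 74.4 and 105 CPM in tumour-bearing lung, against 45.4, 47.1 and 45.9 CPM in control lung (log2 fold change 0.77, SE 0.21, adjusted p = 0.0118). Both sets of tumour-bearing libraries lay above the control libraries, but neither rise passed on log2(TPM + 1) or log2(TPM + 0.1). Dnajb13, a part of the radial spokes of cilia and sperm tails, had 2.19, 0.953, 1.19, 1.76 and 0.171 CPM in tumour-bearing lung, against 13.7, 14.1 and 14.2 CPM in control lung (log2 fold change -3.47, SE 0.59, adjusted p = 0.000925). The 7 motile cilia markers found, all of which fell, summed to 4.69 to 23.4 CPM in tumour-bearing lung and 284.5 to 300.01 CPM in control lung, and their part in the Dnajb13 result was not tested. Dnajb3 was low throughout, with 0.262, 0.159, 0.341, 0.166 and 0.147 CPM in tumour-bearing lung, against 1.14, 1.14 and 1.13 CPM in control lung (log2 fold change -2.38, SE 0.36, adjusted p = 0.000496). Dnajb7 was lower still: it had 0.360, 0.278, 0.136, 0.228 and 0.269 CPM in tumour-bearing lung, against 0.0163, 0.135 and 0.0726 CPM in control lung (log2 fold change 1.74, SE 0.60, adjusted p = 0.0323), which rests on 8 to 22 reads a library in tumour-bearing lung and 1 to 8 in control lung and was lost without control library 1 or 3 or tumour-bearing library 1 (adjusted p of up to 0.111).

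Among the chaperones of the endoplasmic reticulum, the values of the most abundant members turned on 1 library. Hspa5 (BiP), the HSP70 of this compartment, had 606, 545, 756, 871 and 3685 CPM in tumour-bearing lung, against 874, 886 and 908 CPM in control lung (log2 fold change 0.54, SE 0.64, adjusted p = 0.487), and tumour-bearing library 5 stood far above the other 4. Hsp90b1 (Grp94) had 790.3, 731, 979.8, 706 and 2669 CPM in tumour-bearing lung, against 881, 838 and 844 CPM in control lung (log2 fold change 0.46, SE 0.46, adjusted p = 0.409), again with library 5 on top. Without that library the log2 fold changes were -0.32 for Hspa5 and -0.06 for Hsp90b1. Dnajc3, an HSP70 partner in the lumen and an inhibitor of the kinase PERK, fell instead: it had 53.9, 75.4, 80.0, 67.6 and 112 CPM in tumour-bearing lung, against 222, 226 and 231 CPM in control lung (log2 fold change -1.54, SE 0.21, adjusted p = 0.000289). Dnajc10, a reductase of disulphide bonds, rose, with 241, 152, 186, 131 and 139.6 CPM in tumour-bearing lung, against 70.1, 69.5 and 73.1 CPM in control lung (log2 fold change 1.26, SE 0.22, adjusted p = 0.00104). For Dnajc3 and Dnajc10 the groups did not overlap. Dnajb9, induced by the unfolded protein response, was lower (-1.38 ± 0.45, log2 fold change ± SE, adjusted p = 0.0258), although its call was lost without any 1 control library or without tumour-bearing library 1 or 4 (adjusted p of up to 0.0674). Dnajb11 (0.03), Dnajc1 (-0.10), Dnajc25 (-0.25) and Hspa13, named above, did not pass.

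Dnajc22 rose more than any other member. It had 73.3, 47.6, 53.3, 64.6 and 53.4 CPM in tumour-bearing lung, against 0.0814, 0.135 and 0.0363 CPM in control lung (log2 fold change 9.39, SE 0.40, adjusted p = 9.98e-07), from 2182 to 4477 reads in the tumour-bearing lung libraries and 2 to 8 reads in the control lung libraries. This membrane protein, whose fly counterpart wurst acts in endocytosis, was listed with 0 reads in all 6 muscle libraries, where 3 reads would be 0.0679 to 0.0924 CPM. Since the control level rests on a few reads, the fold change varied with the scale and was 5.39 on log2(TPM + 1). Dnajc2, which anchors Hspa14 at the ribosome, also rose, with 75.7, 124, 63.8, 71.2 and 58.3 CPM in tumour-bearing lung, against 25.2, 24.99 and 25.5 CPM in control lung (log2 fold change 1.64, SE 0.26, adjusted p = 0.000585). Both partners of this ribosomal pair were highest in tumour-bearing library 2.

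Other DNAJC genes were called in both directions. Dnajc27, in which a J domain is joined to a small GTPase, had 2.59, 2.48, 3.12, 3.06 and 1.76 CPM in tumour-bearing lung, against 10.7, 10.4 and 11.3 CPM in control lung (log2 fold change -2.05, SE 0.25, adjusted p = 0.000128). Dnajc28 had 1.75, 0.675, 0.971, 0.662 and 0.196 CPM in tumour-bearing lung, against 5.73, 3.10 and 3.40 CPM in control lung (log2 fold change -2.25, SE 0.57, adjusted p = 0.00786). Dnajc6, the auxilin that uncoats clathrin vesicles, also fell (-2.11), as did Dnajc12 (-1.46), whose call was lost without any 1 control library or without tumour-bearing library 1, 2, 4 or 5 (adjusted p of up to 0.110). Rises of 0.54 to 1.03 were called for Dnajc5, a co-chaperone of synaptic and secretory vesicles (1.03), Dnajc17 (0.78), Dnajc9, which handles histones (0.77), Dnajc4 (0.74), Dnajc19 of the mitochondrial import motor (0.66), Dnajc24 (0.61) and Dnajc7 (0.54), and none of these 7 held under all alternatives. Those of Dnajc4, Dnajc7, Dnajc9 and Dnajc24 were lost without any 1 of the control libraries. Dnaja2, a constitutive cytosolic DNAJA, had 146, 179, 168, 147 and 182 CPM in tumour-bearing lung, against 113, 109.8 and 111 CPM in control lung (log2 fold change 0.57, SE 0.14, adjusted p = 0.00635), a call lost on both TPM scales and in 1 fit of all 14 libraries. Of the 17 rises, 5 held under all alternatives run: Dnajc22, Dnajc2, Dnajc10, Hspa9 and Hspb11. Of the 28 falls 25 did, all but Hspa8, Dnajb9 and Dnajc12, and DESeq2 gave no adjusted p for Hspa1a, Hspa1b and Hspb8.

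**Figure D3:**
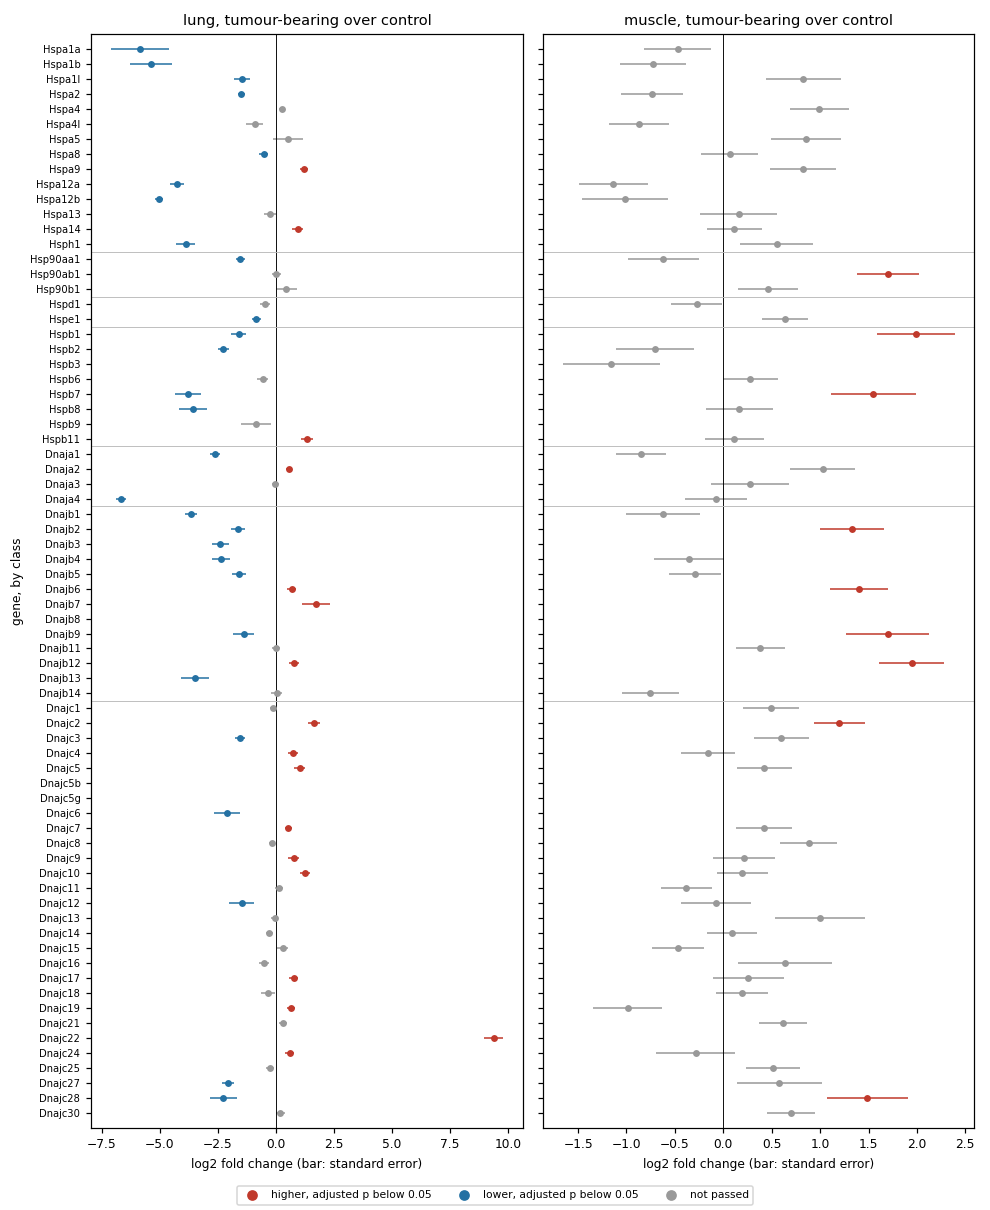
Log2 fold change of tumour-bearing over control for each member tested, in lung on the left and muscle on the right, with genes grouped by class and the bar showing the standard error. The 2 horizontal scales differ. Red marks the 17 lung and 9 muscle rises, blue the 28 lung falls and grey the members that did not pass.

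Of the 7 genes named Hspb that were tested, 4 fell in tumour-bearing lung and 1 rose, where 29.3% of all genes tested fell and 30.4% rose. Hspb1 (HSP25), the most abundant of them, had 231, 155, 196, 296 and 468 CPM in tumour-bearing lung, against 747, 828 and 840.4 CPM in control lung (log2 fold change -1.58, SE 0.32, adjusted p = 0.00257). Hspb8, which works with Bag3 in the autophagy of damaged proteins, had 5.61, 7.68, 7.36, 38.8 and 9.76 CPM in tumour-bearing lung, against 160.1, 165 and 167 CPM in control lung (log2 fold change -3.57, SE 0.61, adjusted p = 0.000943), and tumour-bearing library 4 stood above the other 4. Hspb7, a protein of heart and skeletal muscle sarcomeres, had 0.426, 3.14, 1.19, 1.90 and 2.25 CPM in tumour-bearing lung, against 14.8, 30.0 and 28.4 CPM in control lung (log2 fold change -3.78, SE 0.55, adjusted p = 0.000369). Hspb2, a muscle protein that pairs with Hspb3, had 1.28, 0.992, 1.26, 1.35 and 1.20 CPM in tumour-bearing lung, against 5.52, 6.48 and 5.39 CPM in control lung (log2 fold change -2.25, SE 0.24, adjusted p = 7.08e-05). In each of these 4 genes all tumour-bearing libraries lay below all control libraries. The 10 heart muscle markers, of which 8 fell, summed to 88.6 to 381 CPM in tumour-bearing lung and 384 to 996 CPM in control lung, without TMM scaling. Whether these sums stay apart on TMM-scaled library sizes was not tested. Of the 7 smooth muscle markers 5 fell, the 7 summing to 90.9 to 336 CPM in tumour-bearing lung and 469 to 669 CPM in control lung. The part of the heart or smooth muscle markers in the falls of Hspb7, Hspb2 and Hspb8 was not tested. The related crystallin Cryab, which lies beside Hspb2, fell in the same samples (-3.77 ± 0.18, adjusted p = 1.52e-06, log2 fold change ± SE). Hspb11 had 16.1, 9.96, 17.3, 16.3 and 21.6 CPM in tumour-bearing lung, against 6.38, 6.11 and 6.81 CPM in control lung (log2 fold change 1.34, SE 0.26, adjusted p = 0.00195); despite its name it is a subunit of the intraflagellar transport complex. Hspb6 (-0.57) and Hspb9 (-0.86) did not pass.

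**Figure D4:**
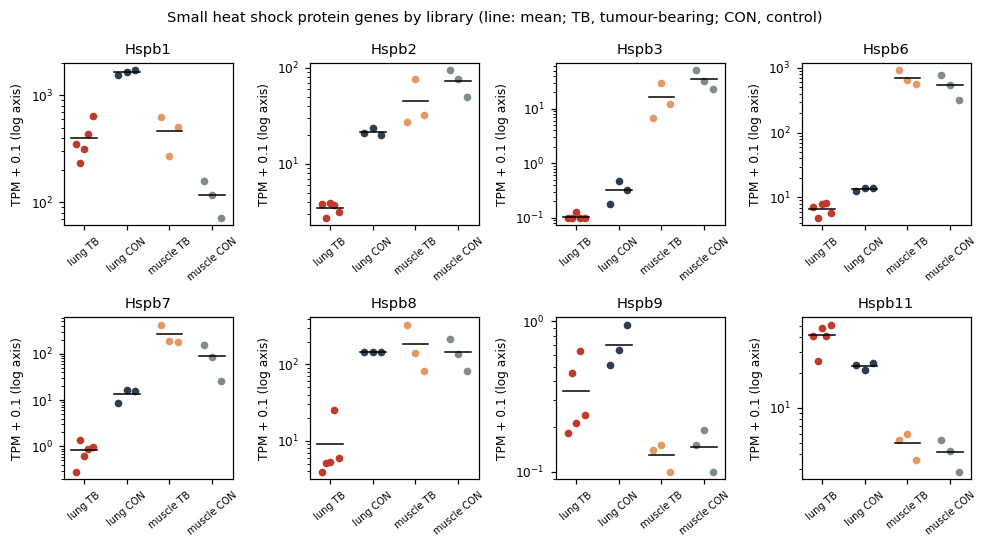
TPM + 0.1 on a log axis of the 8 Hspb genes in each library of tumour-bearing lung, control lung, tumour-bearing muscle and control muscle, with a line at each group mean. Hspb1, Hspb2, Hspb7 and Hspb8 are lower in every tumour-bearing lung library than in every control lung library, and Hspb1 is higher in every tumour-bearing muscle library than in every control muscle library.

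In muscle, 9 of the 63 members tested were higher in tumour-bearing than in control mice and 0 were lower, against 8.53% and 6.75% (15.3% in all) of the 14373 genes tested. Groups did not overlap for 18 members that were higher and 9 that were lower, against 21.1% and 22% of all genes tested. At an unadjusted p below 0.05 edgeR gave 25 of the 63 members, beside 5126 of the 14373 genes tested. DESeq2 called 14 members higher and 3 lower, and it also called more of all genes than edgeR did, as given in the last section. The rises were those of Hsp90ab1, Hspb1, Hspb7, 4 DNAJB genes and 2 DNAJC genes, while the inducible HSP70s did not pass. The median log2 fold change was 0.26 over the members and -0.03 over all genes tested. All 9 calls were lost when any 1 of the 3 control libraries was left out, which leaves 0 members called, and without tumour-bearing library 2 there were 15 higher and 6 lower. Mitochondrial transcripts took 17.6% to 24.0% of counts in tumour-bearing and 16.2% to 34.1% in control muscle. All 3 neutrophil markers tested rose, the 5 markers found summing to 3.70 to 5.71 CPM in tumour-bearing and 0.599 to 1.02 CPM in control muscle, and 3 of 5 fibroblast markers fell, the 5 summing to 377 to 752 CPM in tumour-bearing and 648 to 885 CPM in control muscle. Of the 11 immediate early genes, 4 rose (Junb, Egr1, Atf3 and Ier3) and 0 fell, the 11 summing to 139.9 to 307 CPM in tumour-bearing and 108 to 242 CPM in control muscle. The part of these in the rises was not tested. The 9 members too low to be tested were Dnajb3, Dnajb7, Dnajb8, Dnajb13, Dnajc5b, Dnajc5g, Dnajc6, Dnajc22 and Hspb9.

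Hsp90ab1 had 2726, 1553 and 1767 CPM in tumour-bearing muscle, against 606, 658 and 596 CPM in control muscle (log2 fold change 1.70, SE 0.32, adjusted p = 0.0163). The groups were apart, with tumour-bearing library 1 the highest. Hsp90aa1 did not follow: it had 51.7, 60.4 and 98.6 CPM in tumour-bearing muscle, against 76.9, 89.5 and 158 CPM in control muscle (log2 fold change -0.62, SE 0.37, adjusted p = 0.247), and the groups overlapped. Hsp90b1 had 134, 71.4 and 68.9 CPM in tumour-bearing muscle, against 67.0, 60.5 and 71.4 CPM in control muscle (log2 fold change 0.46, SE 0.31, adjusted p = 0.312). Among small heat shock proteins, Hspb1 had 429, 225 and 677 CPM in tumour-bearing muscle, against 112, 122 and 101 CPM in control muscle (log2 fold change 1.99, SE 0.40, adjusted p = 0.018), so that each tumour-bearing library exceeded each control library. Hspb7 had 1078, 582 and 864 CPM in tumour-bearing muscle, against 402, 329 and 133 CPM in control muscle (log2 fold change 1.55, SE 0.44, adjusted p = 0.0459), also without overlap, but its call was lost under 9 of the 15 alternatives. The most abundant small member, Hspb6, had a log2 fold change of 0.28, and Hspb8 (0.17), Hspb2 (-0.71), Hspb3 (-1.16) and Hspb11 (0.11) did not pass either.

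Among the DnaJ genes, Dnajb12 had 169, 81.8 and 87.4 CPM in tumour-bearing muscle, against 29.1, 31.4 and 27.1 CPM in control muscle (log2 fold change 1.95, SE 0.34, adjusted p = 0.013). Dnajb6 had 204, 111 and 182 CPM in tumour-bearing muscle, against 69.2, 61.2 and 57.4 CPM in control muscle (log2 fold change 1.40, SE 0.30, adjusted p = 0.0212). Dnajb2 had 126, 62.5 and 64.4 CPM in tumour-bearing muscle, against 36.8, 34.0 and 29.7 CPM in control muscle (log2 fold change 1.33, SE 0.33, adjusted p = 0.0325). Dnajb9 had 109, 30.5 and 69.0 CPM in tumour-bearing muscle, against 25.1, 21.2 and 18.1 CPM in control muscle (log2 fold change 1.70, SE 0.43, adjusted p = 0.0343). For each of these DNAJB genes the groups were apart, and library 1 was the highest tumour-bearing one. Dnajc2 had 74.6, 52.9 and 58.3 CPM in tumour-bearing muscle, against 24.0, 25.6 and 31.4 CPM in control muscle (log2 fold change 1.20, SE 0.26, adjusted p = 0.0228). Dnajc28 had 23.6, 12.5 and 8.88 CPM in tumour-bearing muscle, against 7.35, 5.07 and 3.61 CPM in control muscle (log2 fold change 1.49, SE 0.42, adjusted p = 0.0455). Dnaja1 had a log2 fold change of -0.85 (adjusted p = 0.0528) and Dnaja2 of 1.03 (adjusted p = 0.0669), and both passed under some alternatives.

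The inducible genes that were so high in control lung were low in both muscle groups. Hspa1a had 7.04, 8.49 and 3.74 CPM in tumour-bearing muscle, against 10.6, 8.99 and 7.22 CPM in control muscle (log2 fold change -0.47, SE 0.35, adjusted p = 0.349). Hspa1b had 2.45, 4.66 and 2.47 CPM in tumour-bearing muscle, against 6.08, 5.04 and 4.75 CPM in control muscle (log2 fold change -0.73, SE 0.34, adjusted p = 0.16). Dnajb1 had 3.77, 3.99 and 8.49 CPM in tumour-bearing muscle, against 6.64, 7.82 and 10.5 CPM in control muscle (log2 fold change -0.63, SE 0.38, adjusted p = 0.262). Groups overlapped for Hspa1a and Dnajb1, and for Hspa1b all tumour-bearing libraries were below all control libraries. Hsph1 had 46.2, 49.6 and 17.5 CPM in tumour-bearing muscle, against 29.2, 23.1 and 25.1 CPM in control muscle (log2 fold change 0.55, SE 0.38, adjusted p = 0.32). The constitutive Hspa8 had 1247, 861 and 969.8 CPM in tumour-bearing muscle, against 845, 919.8 and 1178 CPM in control muscle (log2 fold change 0.06, SE 0.30, adjusted p = 0.892).

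The organelle HSP70s and the chaperonin did not pass in muscle. Hspa9 had 488, 308 and 279 CPM in tumour-bearing muscle, against 266, 198 and 144 CPM in control muscle (log2 fold change 0.82, SE 0.34, adjusted p = 0.12). Hspa5 had 209.5, 77.0 and 146 CPM in tumour-bearing muscle, against 90.2, 73.9 and 75.2 CPM in control muscle (log2 fold change 0.85, SE 0.36, adjusted p = 0.127). Library 1 was the highest tumour-bearing one for both. Hspe1 had 107, 131 and 135 CPM in tumour-bearing muscle, against 82.6, 79.3 and 77.6 CPM in control muscle (log2 fold change 0.64, SE 0.24, adjusted p = 0.0959). Hspd1 had 67.0, 74.9 and 49.0 CPM in tumour-bearing muscle, against 85.7, 76.3 and 68.8 CPM in control muscle (log2 fold change -0.27, SE 0.26, adjusted p = 0.477). The Hspe1 groups were apart and the Hspd1 groups overlapped.

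The tumour effects of the tissues were compared in 1 fit of all 14 libraries, as the lung effect minus the muscle effect. Of the 69 members tested, 25 were lower in this difference and 4 higher, against 19% and 16.6% (35.6% in all) of the 19834 genes tested. The members with opposite calls in the tissues number 5, falling in lung and rising in muscle, and all 5 passed: Hspb7 (difference -5.31 ± 0.77, log2 ± SE, adjusted p = 0.000135), Hspb1 (-3.56 ± 0.52, adjusted p = 0.000155), Dnajb2 (-2.95 ± 0.48, adjusted p = 0.000319), Dnajc28 (-3.72 ± 0.76, adjusted p = 0.00182) and Dnajb9 (-3.07 ± 0.68, adjusted p = 0.00309). Their differences passed in all alternatives run. Dnajb6, Dnajb12 and Dnajc2 rose in both tissues, and of these the difference passed for Dnajb12 (-1.17 ± 0.38, adjusted p = 0.026), which rose more in muscle, a call lost without lung control library 2 or 3, muscle control library 1 or 3, or tumour-bearing muscle library 1 (adjusted p of up to 0.0740). Hsp90ab1 rose in muscle and did not pass in lung, and the difference itself passed (-1.67 ± 0.33, adjusted p = 0.00141).

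Of the 8 members named above as heat-inducible, 7 were lower in the difference and Hsp90aa1 did not pass (-0.90 ± 0.41, adjusted p = 0.0979). This set was put together after its falls in lung were seen, and the same lung libraries enter the difference. The count is therefore not separate evidence. Of all members tested 36.2% were lower in the difference, and of all genes tested 19%. Beside Hspb1, given above, the difference was -6.58 ± 0.42 for Dnaja4, -5.41 ± 1.44 for Hspa1a, -4.67 ± 1.07 for Hspa1b, -4.45 ± 0.62 for Hsph1, -3.02 ± 0.44 for Dnajb1 and -1.77 ± 0.31 for Dnaja1 (log2 ± SE), with adjusted p between 2.68e-07 and 0.00959. Higher in the difference were Dnajc19 (1.63 ± 0.39), Hspb11 (1.21 ± 0.40), Dnajc10 (1.06 ± 0.33) and Dnajc4 (0.89 ± 0.33), of which Dnajc19 alone held under all alternatives run; the other 3 calls were lost, among others, without lung control library 1 or 2. Hspa1a and Hspa1b have no adjusted p from DESeq2 here either. Dnajc22, which rose most in lung and had 0 reads in all muscle libraries, was not called in the difference.

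**Figure D5:**
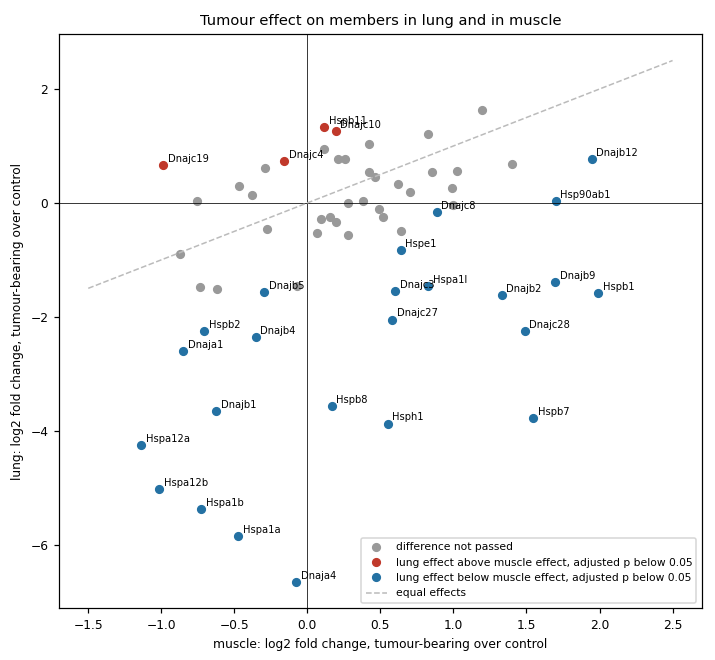
Log2 fold change of tumour-bearing over control in lung, on the vertical axis, against that in muscle, on the horizontal axis, for the members tested in both tissues and in the difference, with a dashed line where the effects are equal. Blue marks members whose lung effect was below their muscle effect and red those above it at an adjusted p below 0.05. Dnaja4, Hspa1a, Hspa1b and Hsph1 lie far below the line, and Hspb7, Hspb1, Dnajb2, Dnajc28 and Dnajb9 are the named points right of 0 and below 0 that were called in both tissues.

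Between the control tissues, lung against muscle, 27 of the 66 members tested were higher in lung and 29 lower, against 44.9% and 36.5% (81.3% in all) of the 18053 genes tested. Groups did not overlap for 29 members that were higher and 31 that were lower, against 46.9% and 37% of all genes tested. This balance depends on the scale: on log2(TPM + 1) it was 51 higher and 7 lower, and the median of all genes moved from 0.25 to 1.66. The direction was the same on both scales for the genes with the largest differences. In control lung Hspa1b had 1201, 1036 and 1058 TPM, against 2.32, 1.31 and 0.920 TPM in control muscle (log2 fold change 6.76, SE 0.17, adjusted p = 4.76e-08). Dnajb1 had 525, 493 and 494 TPM in control lung, against 2.36, 1.90 and 1.97 TPM in control muscle (log2 fold change 5.10, SE 0.19, adjusted p = 1.6e-07). Dnajb13 (5.91 ± 0.34), Hspa1a (5.35 ± 0.19) and Hspa4l, an HSP110 relative (4.001 ± 0.13), followed with adjusted p of at most 1.23e-06. The fold changes come from TMM-scaled counts and are smaller than the ratio of the TPM values for Hspa1b and Dnajb1, which differed by 9.50 and 7.86 on log2(TPM + 0.1). Of the 11 immediate early genes, 10 were also higher in control lung than in control muscle (median log2 fold change of the 11, 4.14), and their part in these differences was not tested.

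The members lower in control lung than in control muscle on both scales were 4 small heat shock proteins, Hspa1l, Dnajc15 and Dnajc19. Hspb6 (HSP20) had 12.4, 14 and 13.9 TPM in control lung, against 777, 539 and 322 TPM in control muscle (log2 fold change -8.07, SE 0.21, adjusted p = 4.76e-08). Hspb3 had 0.0800, 0.370 and 0.220 TPM in control lung, from 2 to 9 reads, against 50.1, 32.1 and 22.8 TPM in control muscle (log2 fold change -9.98, SE 0.26, adjusted p = 5.22e-08). Hspb7 had 8.51, 16.5 and 15.7 TPM in control lung, against 155, 87.1 and 26.2 TPM in control muscle (log2 fold change -5.35, SE 0.50, adjusted p = 2.08e-05). Here the TPM values are closer to each other than the fold changes from TMM-scaled counts: on log2(TPM + 1) the difference was -5.15 for Hspb6, -4.82 for Hspb3 and -2.36 for Hspb7. For Hspb3, whose control lung values lie below 1 TPM, the added 1 itself also makes the difference smaller. Hspb2 (-4.89 ± 0.14) and Hspa1l (-4.03 ± 0.22) followed, with adjusted p of at most 8.96e-07. Hspb1, by contrast, was higher in control lung (1.07 ± 0.13, adjusted p = 8.52e-05).

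Of the wider chaperone network, given by lists of other genes, the cytosolic chaperonin rose in lung. Of all genes tested, 30.4% rose and 29.3% fell in tumour-bearing lung, and 8.53% rose and 6.75% fell in tumour-bearing muscle. These shares stand beside all list counts given here and below. All 8 subunits of TRiC/CCT, which folds actin and tubulin, rose in tumour-bearing lung, among them Cct2 (2.12 ± 0.16, adjusted p = 1.03e-05, log2 fold change ± SE) and Cct5 (1.48 ± 0.18, adjusted p = 0.00015), and 5 of the 6 subunits of prefoldin, which hands clients to it, rose too, led by Pfdn1 (2.33 ± 0.17, adjusted p = 1.08e-05). On log2(TPM + 1), 8 TRiC/CCT and 3 prefoldin subunits were called higher. In muscle 3 of 8 TRiC/CCT subunits (Tcp1, Cct2 and Cct4) and 0 of 6 prefoldin subunits rose, with Cct2 at 1.75 ± 0.29, adjusted p = 0.0118. No TRiC/CCT subunit was called in muscle on log2(TPM + 1) or without any 1 of the control libraries.

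Among 16 HSP70 co-chaperones, 7 rose and 3 fell in tumour-bearing lung, where 30.4% of all genes tested rose and 29.3% fell. This balance turned on log2(TPM + 1), with 3 higher and 6 lower. Bag3, an exchange factor that is itself heat-inducible, fell (-2.05 ± 0.29, adjusted p = 0.000353, log2 fold change ± SE), with Bag5 and Stip1, while Bag2 rose (2.12 ± 0.33, adjusted p = 0.000522), with Bag1, Bag4, Sil1, Stub1, Grpel1 and Tomm34. In muscle Bag6 (1.61 ± 0.32, adjusted p = 0.0177) and Grpel1 (1.16 ± 0.30, adjusted p = 0.037) rose and Hspbp1 fell. Of 17 HSP90 co-chaperones in lung, 3 rose (Cdc37, Fkbp5 and Fkbp8) and 6 fell, among them the muscle proteins Smyd1 (-4.71 ± 0.62, adjusted p = 0.000211) and Unc45b (-4.03 ± 0.26, adjusted p = 4.74e-06), beside the heart muscle markers given above. In muscle 1 of the 17 rose, Fkbp5 (3.52 ± 0.43, adjusted p = 0.00604), an immunophilin induced by glucocorticoids, and 1 fell, Itgb1bp2 (-2.22 ± 0.46, adjusted p = 0.0191), a muscle protein.

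Calls among the transcription factors of the heat shock response differed by tissue. The counts in this paragraph stand beside 30.4% of all genes tested that rose in lung and 8.53% that rose in muscle. In tumour-bearing muscle Hsf1 (1.41 ± 0.28, adjusted p = 0.0172, log2 fold change ± SE) and Hsf4 (1.58 ± 0.33, adjusted p = 0.0201) rose. In tumour-bearing lung Hsf4 fell (-1.25 ± 0.26, adjusted p = 0.00309), Hsf1 did not pass (-0.50 ± 0.20, adjusted p = 0.0569) and Hsbp1, a small protein that binds the factors, rose (0.38 ± 0.13, adjusted p = 0.0296). On log2(TPM + 1) the list had 0 higher and 2 lower in lung, and 0 called in muscle. The difference of the tissue effects passed for Hsf1 (-1.92 ± 0.32, adjusted p = 0.000441) and Hsf4 (-2.83 ± 0.39, adjusted p = 8.38e-05). Of 9 mitochondrial chaperones and proteases, 5 rose in lung, led by Lonp1 (1.67 ± 0.29, adjusted p = 0.001) and Htra2 (1.05 ± 0.18, adjusted p = 0.00105), and 1 in muscle, Clpp (0.98 ± 0.24, adjusted p = 0.0319). Of 15 genes tested for the endoplasmic reticulum and its unfolded protein response, 2 rose (Pdia3 and P4hb) and 2 fell (Serpinh1 and Ern1) in lung, against 1 higher and 4 lower on log2(TPM + 1). In muscle P4hb (1.38 ± 0.28, adjusted p = 0.0189) and Xbp1 rose and the collagen chaperone Serpinh1 fell (-1.87 ± 0.33, adjusted p = 0.0138). Among 4 J-domain proteins outside the naming pattern, Hscb rose in lung (0.76 ± 0.22, adjusted p = 0.0153) and Sec63 in muscle (1.24 ± 0.27, adjusted p = 0.0226). Without any 1 of the muscle control libraries no gene of these lists rose in muscle except 1 HSP90 co-chaperone, and the only fall left was 1 gene of the endoplasmic reticulum list, without control library 1. On log2(TPM + 1) no gene of these lists was called in muscle except 2 HSP90 co-chaperones, 1 higher and 1 lower, and none of the 4 J-domain proteins was called in lung.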

How the data were processed

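Gene tables of 14 libraries, prepared with a directional kit, were used. The submitters' processing notes name Trim Galore for trimming, STAR 2.7.9a for alignment and RSEM 1.3.3 for counting. For the genome build and the strand option, the sources used here state nothing. The deposited expected counts (estimated reads per gene, not normalized) and the deposited TPM values (scaled for transcript length and to the same sum in each library) are the authors'. Symbols came from GENCODE M21 and matched 52083 of 55416 gene IDs. Expected counts were rounded, genes with low counts were removed with filterByExpr, and TMM scaling with the quasi-likelihood test of edgeR 4.0.16 (R 4.3.3) was used, with Benjamini-Hochberg adjustment over all genes tested and a threshold of 0.05. The fits were muscle (3 against 3), lung (5 against 3), control lung against control muscle (3 against 3), and the difference of the tumour effects (14 libraries). Alternatives were DESeq2 1.42.0, limma 3.58.1 on log2(TPM + 1) and log2(TPM + 0.1), RLE and upper-quartile scaling, no filter, a filter at mean 1 CPM, a replicate block, 1 fit of all 14 libraries, and leaving out each library. Scripts were run on simulated counts with the same dispersion for all genes and groups. That setting is simpler than these data, so it checks the code only. A count of 3 reads corresponds to 0.0491 to 0.0924 CPM; depth covers counting error only. Values per library were given for 13 core members and for up to 3 passing members per class and direction by smallest p. Up to 5 members with opposite calls were also picked, and the 5 largest differences either way between control tissues. Some of these have values per library and the others fold change and SE. Genes of the lists, where the 2 leading ones were picked, are given by fold change and SE or by name. Other members are given by fold change. Members and lists were chosen with earlier results of these data known. Near-identical copies (Hspa1a and Hspa1b), pseudogenes (of Hspd1, Hspe1, Dnajc19, Hspa9 and Dnaja1) and overlapping exons (Hspa14, Dnajc25, Dnaja3, Dnajc14, Hspb2, Hspd1 with Hspe1, Dnajb13 and Dnajc7) make the counts of these genes uncertain.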

Additional observations from a re-analysis of the deposited data

Results flagged for a closer look

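In 8 of 35 members checked in tumour-bearing lung, 1 library stood apart from the other 4 by Dixon's criterion, which chance meets in about 1 in 20 groups of normally distributed values. CPM values need not be so distributed. The 8 are not separate observations either, since Hspa1a and Hspa1b are near-identical copies and several genes share the same high library. Library 5 was the high one for Hspa5 (3685 CPM, the next 871), Hsp90b1 (2669 CPM, the next 979.8), Hspa1b (144 CPM, the next 43.7) and Hspa1a (88.7 CPM, the next 7.95). Library 2 was the high one for Dnajc2 (124 CPM, the next 75.7) and Hspa14 (59.3 CPM, the next 34.1). Library 4 was the high one for Hspb8 (38.8 CPM, the next 9.76) and Hspa12a (1.88 CPM, the next 1.08).

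The tumour effect differed between lung and muscle, by edgeR's test of the difference itself, for 23 of the members described with values. Many of these were picked for a small p in lung or muscle, and up to 5 for passing this same test. The 23 are therefore a list and not a measure of the family. Of all 69 members tested 42.0% passed, against 35.6% of the 19834 genes tested. Among HSP70, HSP90 and chaperonin genes the lung effect minus the muscle effect, in log2, was -5.41 for Hspa1a, -4.67 for Hspa1b, -4.45 for Hsph1, -4.04 for Hspa12b, -3.12 for Hspa12a, -1.67 for Hsp90ab1 and -1.47 for Hspe1. Among genes named Hspb it was -5.31 for Hspb7, -3.74 for Hspb8, -3.56 for Hspb1, -1.56 for Hspb2 and 1.21 for Hspb11. Among DNAJA and DNAJB genes it was -6.58 for Dnaja4, -3.07 for Dnajb9, -3.02 for Dnajb1, -2.95 for Dnajb2, -1.996 for Dnajb4, -1.77 for Dnaja1 and -1.17 for Dnajb12. Among DNAJC genes it was -3.72 for Dnajc28, -2.63 for Dnajc27, -2.14 for Dnajc3 and 1.06 for Dnajc10.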

How the results depend on the processing

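The muscle calls varied most. Members called higher, 9 with edgeR, were 14 with DESeq2, 3 on log2(TPM + 0.1) and 1 on log2(TPM + 1), and 0 to 15 with 1 library left out. Members called lower, 0 with edgeR, were 4 in 1 fit of all 14 libraries, 3 with the replicate block, 1 with the filter at mean 1 CPM, 3 with DESeq2, 4 with no filter, 1 with upper-quartile scaling and 0 to 6 with 1 library left out. All genes called in muscle, 2196 with edgeR, were 3459 in 1 fit, 3303 with the block, 3657 with DESeq2, 4031 with no filter, 676 on log2(TPM + 0.1), 415 on log2(TPM + 1) and 106 to 4513 with 1 library left out. Hspa8 in muscle turned sign with the filter at mean 1 CPM (-0.00144) and with upper-quartile scaling (-0.18), and lay between -0.082 and 0.21 with 1 library left out. In lung 7 members rose on either TPM scale. Signs turned in lung for Hsp90ab1 (-0.0355 in 1 fit, -0.00764 with the filter at mean 1 CPM, -0.00743 with DESeq2 and with RLE, -0.44 on both TPM scales, -0.060 with upper-quartile scaling, -0.013 to 0.10 with 1 library left out), Hsp90b1 (-0.046 with the block, -0.24 on both TPM scales, -0.059 to 0.61 with 1 library left out) and Hspa5 (-0.50 with the block, -0.46 on both TPM scales, -0.32 to 0.75 with 1 library left out). Control lung against control muscle gave 52 higher on log2(TPM + 0.1), 51 on log2(TPM + 1), and 7 lower on each. The difference of effects, with 4 higher, gave 2 with the block, 7 with DESeq2, 2 with no filter and 1 to 5 with 1 library left out. The causes were not tested.

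Same-numbered libraries did not deviate together in every pair (muscle 0.363, -0.036 and 0.424, lung 0.062, 0.090 and -0.008, control tissues -0.033, 0.026 and -0.091), so the replicate numbers were not read as pairs. In muscle the pairs of unlike number lay between -0.473 and 0.087, below the same-numbered pairs 1 and 3. Pairing in muscle cannot be settled from these values. In the lung block, tumour-bearing libraries 4 and 5 have no partner and do not enter the contrast. Of the values of named members under alternatives, 1034 kept direction and side of the threshold, 63 lost the call, 7 gained one and 20 turned sign. Counts and medians of members stayed close in 163 and 61 cases and moved in 41 and 7. Counts over the lists, an alternative added after seeing the data, stayed close in 826 cases and moved in 146.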
